A study of Mus musculus with 13 samples.

Results

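The genes that write, copy and remove DNA methylation were followed through the libraries of mouse melanoma cells treated with ADAR1i-124, an inhibitor of the RNA editing enzyme ADAR1, or with 5-AZA-CdR, an inhibitor of the DNA methyltransferases themselves. They are the 7 genes Dnmt1, Dnmt3a, Dnmt3b, Uhrf1, Tet1, Tet2 and Tet3, taken by symbol from the 54532 genes of the count table, and each symbol matched a single row. All samples were YUMM1.7 cells, an established mouse melanoma line whose genotype the labels give as WT. Cells received DMSO, ADAR1i-124 (10 μM, 12 h), 5-AZA-CdR (1 μM, 72 h) or both compounds. The study describes its combination as 5-AZA-CdR followed by ADAR1i-124, and the labels give no dose or time for the precipitates of the combination. The total RNA libraries used here are those of the first 3 groups, and the total RNA library of the combination was left out because its counts follow the other strand. RNA from each of the 4 groups was also digested with an RNase that cuts single strands and precipitated with J2, an antibody against double-stranded RNA, or with Z22, an antibody against Z-form RNA. A precipitate with IgG served as the control, and the treatment of its cells is not given. Each of the 12 libraries is the only library of its condition. No difference below therefore has a replicate check, no test was run, and the 95% intervals cover counting error only, since these reads carry no molecular identifiers and several may come from 1 molecule.

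A methyl group on cytosine in CG dinucleotides is copied to the new DNA strand after each round of replication by DNMT1. UHRF1 recognises the half-methylated site and recruits DNMT1 to it, and the RNA of both genes is known to be most abundant in cells that replicate their DNA. DNMT3A and DNMT3B place methyl groups on unmethylated DNA, whereas TET1, TET2 and TET3 oxidise the methyl group as the first step of its removal. 5-AZA-CdR is built into replicating DNA, where it traps the methyltransferases as covalent complexes. The values here are RNA levels, and neither protein nor DNA methylation was measured in these libraries.

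Counts on genes summed to between 17015425 and 34571822 in the total RNA libraries and to between 8167960 and 15324595 in the precipitated libraries. They were scaled to a library total of 1e6, which gives CPM. The gene Gm42418, which overlaps ribosomal RNA, held 34.9% of all counts in the DMSO library of Z22 and 10.6% to 18.9% in the other precipitates. The median of all genes was 0.81 to 1.06 higher on the log2 scale in the treated Z22 libraries than in that library. The melanocyte markers Mitf and Pax3 were present in total RNA, at 20.3 to 33.1 and 69.9 to 86.5 CPM. The other 7 of 9 melanocyte markers stayed below 1 CPM in all 3 total RNA libraries, and Tyr, Tyrp1 and Mlana had no count. Of 12 markers of other cells, 7 stayed below 1 CPM in total RNA, Cd3e and Krt14 had no count, and the summed level of the list was 203 CPM with DMSO, 435 with ADAR1i-124 and 244 with 5-AZA-CdR. Most of that sum was Pdgfrb with DMSO (169 CPM) and 5-AZA-CdR (156 CPM) and Acta2 with ADAR1i-124 (386 CPM). The endothelial gene Cdh5 had 3.70, 17.8 and 81.1 CPM in that order. The part of these shifts in the changes below was not tested.

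Genes of DNA replication differed in level between total RNA and precipitates of DMSO-treated cells. The summed level of 28 S phase genes, which include the replicative helicase genes Mcm2 to Mcm7, was 2438 CPM in total RNA with DMSO but 760.4 CPM in the J2 library and 751 CPM in the Z22 library of the same treatment. With ADAR1i-124 it was 2145 CPM in total RNA, 2673 CPM with J2 and 2343 CPM with Z22. With 5-AZA-CdR it was 705, 1126 and 1417 CPM. The combination had 882 CPM with J2 and 567 CPM with Z22, and the IgG library had 2613 CPM. Every change against DMSO in precipitated RNA rests on the J2 and Z22 libraries with DMSO. Their sums were lower than that of total RNA with DMSO. Whether these precipitates came from the same culture as the DMSO total RNA is not given in the sources used here.

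The genes lie on separate chromosomes of the GRCm38 build. Dnmt1 (ENSMUSG00000004099) is on the reverse strand of chromosome 9 from 20907209 to 20959888. Uhrf1 (ENSMUSG00000001228) lies forward on chromosome 17, from 56303321 to 56323486. Dnmt3a (ENSMUSG00000020661) is on chromosome 12 from 3806007 to 3914443 and Dnmt3b (ENSMUSG00000027478) on chromosome 2 from 153649450 to 153687730, both forward. The TET genes are on reverse strands, with Tet1 (ENSMUSG00000047146) on chromosome 10 from 62804570 to 62908996. Tet2 (ENSMUSG00000040943) is on chromosome 3 from 133463679 to 133545139 and Tet3 (ENSMUSG00000034832) on chromosome 6 from 83362373 to 83459084. The uncharacterised gene 5430434F05Rik lies within Tet3 on the same strand and had 29 to 400 counts in the 12 libraries. Reads of the overlap cannot be assigned to either with certainty. No other gene overlapping a member had more than 49 counts.

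RefSeq promoter windows of the same build, from 250 bases before to 50 bases after a start, were matched to all 7 genes and gave 12 windows. They held between 2 and 57 CG, with a median of 26 against 7 over all 32851 windows. The E2F factors, which drive S phase genes, bind a short GC-rich word, searched here as TTTCCCGC, TTTCGCGC, TTTGCCGC and TTTGGCGC on both strands. At least 1 of these words stood in 2.26% of all windows and in 2 of the 12 member windows. By gene, it was 2.61% of the 27025 genes with a window and 9 of the 23 S phase genes with one (39.1%). Each of the 4 words contains CG, and the windows of the S phase genes had a median of 21 CG. These shares are therefore not matched for CG content. Among the members, only a window of Uhrf1 and a window of Dnmt1 held one. The promoters of the 3 members with the largest changes in total RNA are shown with the words in capitals, as the 250 bases before the start for Dnmt1, Uhrf1 and Tet2. The Dnmt1 words lie in another of its 3 windows, 1 before and 1 after the start of that window, and each is shown within 30 bases. That start is downstream of the one whose 250 bases are printed. The letters GCGCGAAA are TTTCGCGC read on the other strand.
Dnmt1, chr9:20952980-20953229, reverse strand: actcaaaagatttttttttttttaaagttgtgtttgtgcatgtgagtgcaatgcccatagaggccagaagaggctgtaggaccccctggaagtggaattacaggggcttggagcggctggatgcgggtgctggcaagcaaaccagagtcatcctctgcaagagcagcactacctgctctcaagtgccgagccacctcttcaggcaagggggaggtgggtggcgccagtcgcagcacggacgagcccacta
Dnmt1 first word, chr9:20952824-20952853, reverse strand: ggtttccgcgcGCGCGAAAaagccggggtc
Dnmt1 second word, chr9:20952574-20952603, reverse strand: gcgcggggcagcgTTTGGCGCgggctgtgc
Uhrf1, chr17:56304063-56304312, forward strand: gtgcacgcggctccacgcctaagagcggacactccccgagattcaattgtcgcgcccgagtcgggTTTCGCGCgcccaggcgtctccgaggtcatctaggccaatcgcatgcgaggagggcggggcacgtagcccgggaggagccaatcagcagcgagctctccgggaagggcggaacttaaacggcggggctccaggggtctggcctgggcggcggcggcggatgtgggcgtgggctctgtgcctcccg
Tet2, chr3:133544391-133544640, reverse strand: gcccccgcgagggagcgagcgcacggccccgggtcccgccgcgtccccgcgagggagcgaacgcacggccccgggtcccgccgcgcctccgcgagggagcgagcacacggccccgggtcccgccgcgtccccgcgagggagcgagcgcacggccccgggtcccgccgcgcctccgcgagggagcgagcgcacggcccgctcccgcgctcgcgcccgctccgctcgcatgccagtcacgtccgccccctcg
The Uhrf1 stretch has 30 CG and the Tet2 stretch 51, and the stretch before this Dnmt1 start has 7. The Dnmt1 window with the words has 33 CG, as has the Uhrf1 window. The Tet2 window as a whole has 57 CG, more than 99.8% of all windows, and none of the 4 words. A match is a description of the letters, and binding was not measured.

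The maintenance genes dominated the group. Compared per length, as CPM per kb of merged exons in total RNA with DMSO, Dnmt1 stood at 45.3 (interval 44.1 to 46.5) and Uhrf1 at 40.1 (38.7 to 41.6). Tet3 followed at 7.21, Tet2 at 5.20 and Dnmt3a at 3.30, and Dnmt3b was at 0.40 (0.28 to 0.56). Tet1 was last at 0.042 CPM per kb, from 11 counts. No neighbours in this order had overlapping intervals. With ADAR1i-124 the first places were exchanged, with Uhrf1 at 46.8 and Dnmt1 at 33.7 CPM per kb. With 5-AZA-CdR, Tet2 was second after Dnmt1 (22.4) at 13.6 CPM per kb and did not differ from Uhrf1 at 13.3 beyond the counting intervals.

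**Figure D1:**
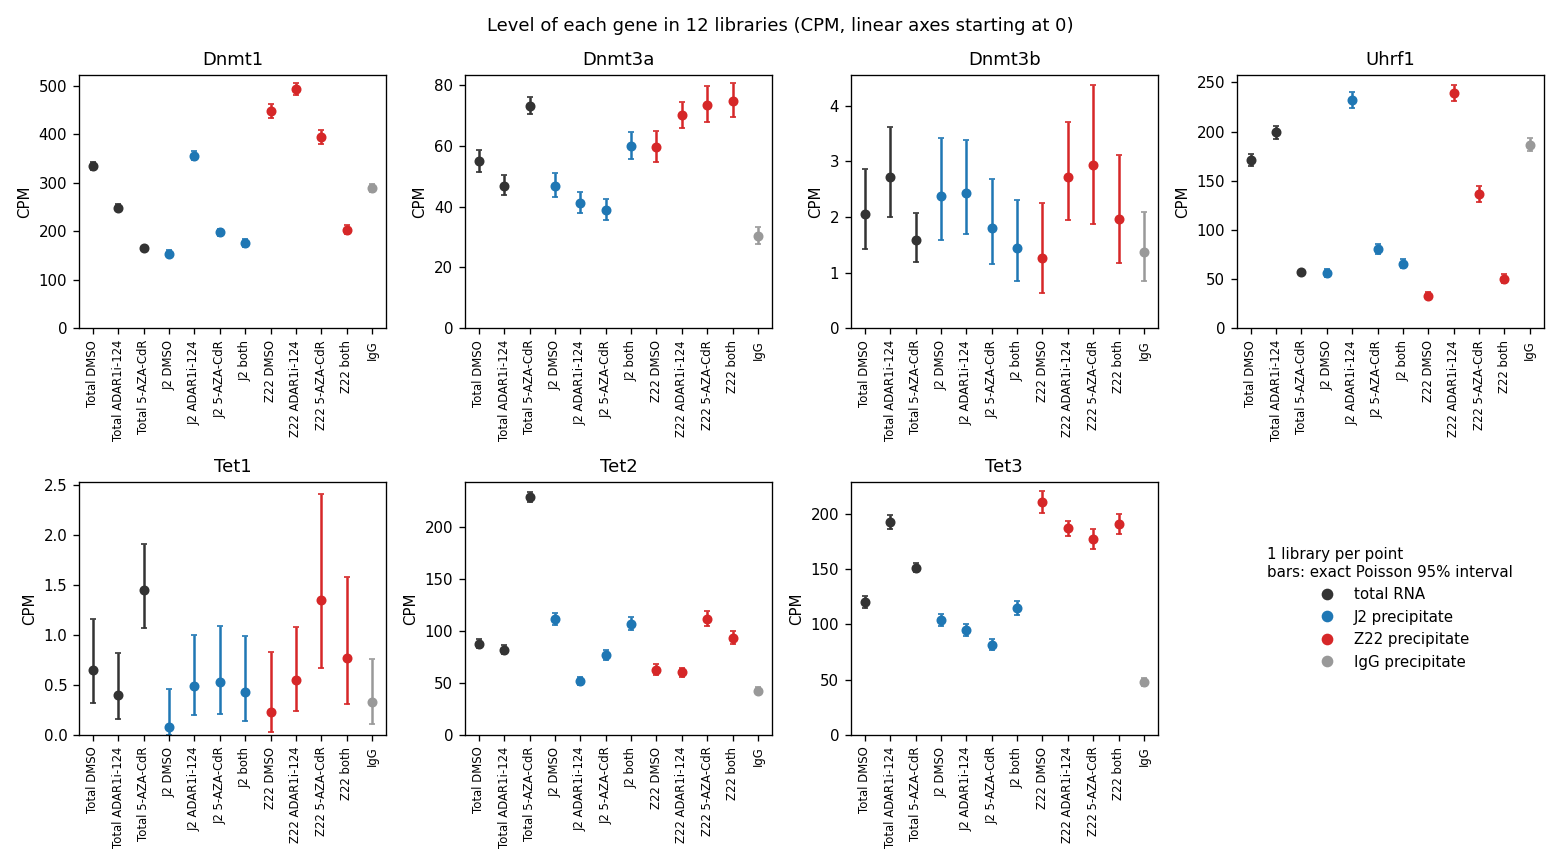
Level of each gene in CPM (linear axes from 0) in 12 libraries, 1 library per point, with exact Poisson 95% intervals as bars; black is total RNA, blue J2, red Z22 and grey IgG, and "both" is 5-AZA-CdR + ADAR1i-124. Uhrf1 spans 33.1 to 239 CPM, Tet2 is highest in total RNA with 5-AZA-CdR at 229 CPM, and Tet3 is at or above 177 CPM in all 4 Z22 libraries.

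With 5-AZA-CdR, the RNA of the maintenance genes was lower and that of Tet2 was higher in total RNA. Uhrf1 had 171 CPM with DMSO (2909 counts) and 56.8 CPM with 5-AZA-CdR (1965 counts in a library of larger total). The log2 change was −1.58 (interval −1.67 to −1.51), and 3.29% of the genes tested had a lower one. Dnmt1 had 334 and 165 CPM, a change of −1.01 (−1.07 to −0.96). The Dnmt1 value lies at the 2-fold line, which is inside its interval. Of the 7 genes, 2 were at least 2-fold lower and 1 at least 2-fold higher, where 8.96% of the 14391 genes averaging 1 CPM or more were lower and 17.0% higher. The median change of all genes was 0.06.

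Tet2 was the member past the line in the other direction. It had 87.7 CPM with DMSO and 229 CPM with 5-AZA-CdR (1492 and 7909 counts), a change of 1.38 (1.30 to 1.46) or 2.61-fold. Tet3 had 120.4 and 151 CPM, a change of 0.33 (0.26 to 0.41). Tet1, which is most abundant in embryonic stem cells, went from 11 to 50 counts, or 0.65 to 1.45 CPM. Its change was 0.76 with the pseudocount of 0.5 CPM, and the interval of its ratio without pseudocount ran from 0.20 to 2.25. Of the genes tested, 88.9% had a lower change than Tet2, 78.0% a lower one than Tet1 and 62.5% a lower one than Tet3. Neither de novo enzyme passed the line. Dnmt3a had 55.0 and 73.3 CPM, a change of 0.41 (0.31 to 0.52), whereas Dnmt3b, at 2.06 and 1.59 CPM, had a change of −0.29 with an interval of −1.01 to 0.28 that includes 0.

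With ADAR1i-124, no member passed the 2-fold line in total RNA, where 7.71% of 13693 genes were higher and 8.7% lower. The DMSO library is the same as in the 5-AZA-CdR comparison. The largest value was that of Tet3, with 120.4 CPM with DMSO and 193 CPM with ADAR1i-124, a change of 0.68 (0.60 to 0.76). Dnmt1 went from 334 to 249 CPM, a change of −0.43 (−0.48 to −0.37). Uhrf1, its partner, had 171 and 199 CPM, a change of 0.22 (0.15 to 0.29) in the other direction. Dnmt3a had 55.0 and 46.9 CPM (−0.23, interval −0.36 to −0.09) and Tet2 87.7 and 81.7 CPM (−0.10, −0.21 to 0.00). Dnmt3b and Tet1 had 48 and 7 counts against 35 and 11 with DMSO, and their intervals include 0. The median change of all genes was −0.09.

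**Figure D2:**
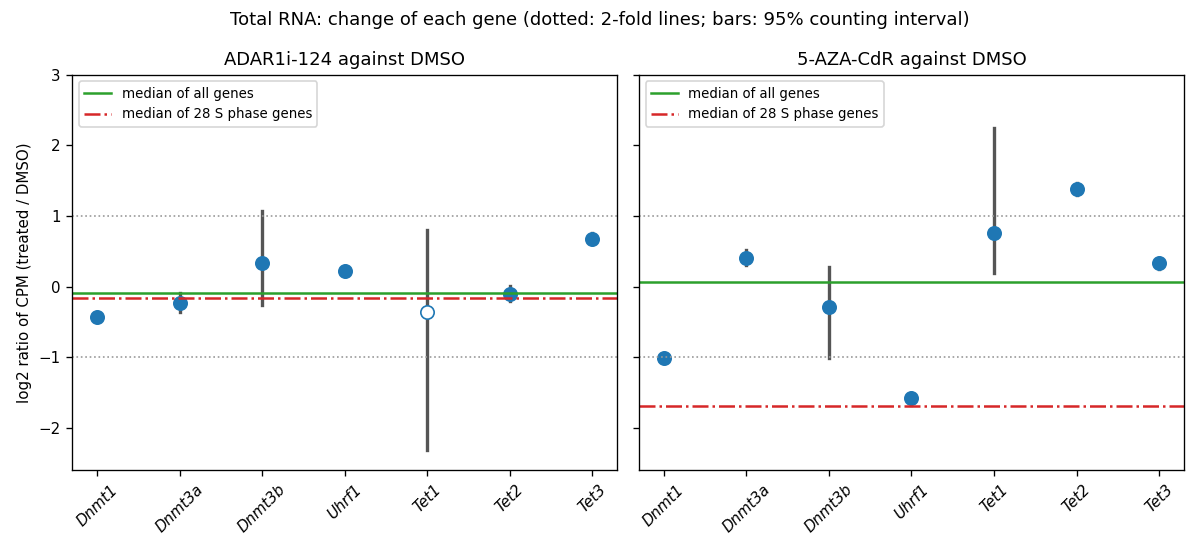
Log2 ratio of CPM to DMSO for the 7 genes in total RNA with ADAR1i-124 (left) and 5-AZA-CdR (right), with 95% counting intervals as bars; the open circle is below a mean of 1 CPM, dotted lines mark 2-fold, and the solid and dash-dotted lines are the medians of all genes and of 28 S phase genes. With 5-AZA-CdR, Uhrf1 at −1.58 lies by the S phase median of −1.68, Dnmt1 lies at −1.01, and Tet2 is above the 2-fold line at 1.38.

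The S phase genes were lower with 5-AZA-CdR almost throughout, and Uhrf1 was close to their median. Of 28 genes, 22 were at least 2-fold lower and none 2-fold higher, with a median change of −1.68, beside 8.96% and 17.0% of all genes tested. The thymidine kinase Tk1 (−2.69), the primase subunit Prim1 (−2.55) and the helicase subunit Mcm5 (−2.47) had the largest changes. With ADAR1i-124, 1 gene was at least 2-fold lower (Gins1, −1.27), 1 was higher (the replication licensing factor Cdt1), and the median was −0.16. Of all genes tested, 8.7% were lower and 7.71% higher. Pola1, the catalytic subunit of DNA polymerase alpha, was at −0.86.

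Partners of the writers behaved in part like Uhrf1. With 5-AZA-CdR, 6 of the 14 such genes above 1 CPM were at least 2-fold lower and none was higher, with a median of −0.76, beside 8.96% and 17.0% of all genes tested. Hells, the chromatin remodeller needed for methylation of repeats, was at −1.82 (157 and 44.2 CPM), its partner Cdca7 at −2.10 and the tRNA methyltransferase Trdmt1 at −1.59. Dnmt3l, a cofactor of de novo methylation in germ cells, had 1 count with DMSO, 32 with 5-AZA-CdR and 19 with ADAR1i-124. These are 0.059, 0.93 and 1.08 CPM, and its mean was below 1 CPM in both comparisons. In J2 with DMSO, 5-AZA-CdR and ADAR1i-124 it had 1, 24 and 1 counts, and in Z22 1, 3 and 2. With ADAR1i-124, the CG-binding protein gene Cxxc1 was at 1.24 and the histone deacetylase Hdac1 at −1.04. Each was the only gene of the list past the line in its direction, where 7.71% of all genes tested were higher and 8.7% lower. Cdca7 was at −0.68.

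A list of 10 candidate readers of DNA methylation joins genes of the MBD family and zinc finger genes. Zbtb4 was at 1.83 with 5-AZA-CdR (617 and 4494 counts) and was the only one past the line. Of all genes tested, 17.0% were higher and 8.96% lower. Mbd3 was at −0.94 and Mbd6 at 0.77. With ADAR1i-124 none of the 10 passed the line, where 7.71% of all genes tested were higher and 8.7% lower. Mbd6 was at 0.76, Mbd5 at −0.62 and Mbd1 at 0.58.

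A list of 18 removal and repair genes joins enzymes of base excision, GADD45 genes, cytidine deaminases and the TET-associated Ogt, Cxxc4 and Cxxc5. Of these, 16 were above 1 CPM with 5-AZA-CdR, 3 were at least 2-fold higher and 3 lower, with a median of 0.33, beside 17.0% and 8.96% of all genes tested. The glycosylase Neil1 was at 2.04 (1.82 and 9.05 CPM), the endonuclease Apex1 at −2.00 and Parp1 at −1.47. With ADAR1i-124, 2 of 15 were higher and 2 lower, beside 7.71% and 8.7% of all genes tested. The cytidine deaminase Apobec1 was at −2.86 (42.3 and 5.39 CPM), Apobec3 at −1.45 and Gadd45b at 1.37.

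The genes that supply methyl groups and the TET cofactor 2-oxoglutarate were lower more often than higher. With 5-AZA-CdR, 3 of 12 were at least 2-fold lower and none higher, with a median of −0.57, beside 8.96% and 17.0% of all genes tested. Ahcy, which clears the inhibitory product of methylation, was at −1.65 and Idh3a, a subunit of a mitochondrial enzyme that makes 2-oxoglutarate, at −1.43. With ADAR1i-124, 2 of 12 were lower and none higher, with a median of −0.24, beside 8.7% and 7.71% of all genes tested. Idh1, which makes 2-oxoglutarate in the cytosol, was at −2.57 (170 and 28.2 CPM), Mat2b, a subunit of the enzyme that makes the methyl donor, at −1.64 and Idh2 at −0.45.

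Genes that take up and process 5-AZA-CdR were measured in the same libraries. With 5-AZA-CdR, 4 of 9 above 1 CPM were at least 2-fold lower and none higher, beside the same shares of all genes. They include the deaminase Dctd (−2.16), deoxycytidine kinase Dck (−1.83), which activates the drug, and Dctpp1 (−1.72). With ADAR1i-124, the cytidine deaminase Cda, which inactivates it, was at −1.68 and the nucleotide hydrolase Samhd1 at −1.36, and Slc29a2, a nucleoside transporter, was at 0.84.

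Of 16 germline genes known to be silenced by promoter methylation, 3 reached a mean of 1 CPM over DMSO and 5-AZA-CdR. Tex19.1 went from no count to 173 and Dazl from no count to 107. Against the floor of 3 counts in the DMSO library (0.176 CPM), they were at least 28.4-fold and 17.6-fold higher. Rhox5, a homeobox gene of the X chromosome, was already present at 36.6 CPM and was at −0.50 with 5-AZA-CdR. With ADAR1i-124 it was at −4.78 (36.6 and 0.851 CPM) and was the only gene of the list above 1 CPM. In precipitates of the same treatment it was higher than with DMSO, by 2.53 in J2 (8.29 and 50.4 CPM) and 0.62 in Z22 (12.3 and 19.2 CPM). The medians of all genes were 0.00 and 0.81, so the Z22 value was below the median. With 5-AZA-CdR it was at 3.97 in J2 (101 and 1820 counts) and 3.45 in Z22 (107 and 1137 counts). The medians of all genes there were 0.06 and 1.06.

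In J2 precipitates several members differed from DMSO in another direction than in total RNA. The 3 comparisons share the J2 library of DMSO-treated cells. Uhrf1 had 56.4 CPM with DMSO, 232 CPM with ADAR1i-124, 80.8 CPM with 5-AZA-CdR and 65.7 CPM with the combination. Dnmt1 had 154, 356, 198 and 176 CPM in that order. Tet2 had 111, 51.8, 76.6 and 107 CPM. ADAR1i-124 was thus the highest library for both maintenance genes and the lowest for Tet2. Against DMSO, ADAR1i-124 gave 2.03 for Uhrf1 (1.92 to 2.16), 1.20 for Dnmt1 (1.13 to 1.28) and −1.09 for Tet2 (−1.23 to −0.97). These were the 3 members past the line, where 7.37% of 13522 genes were higher and 10.8% lower.

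With 5-AZA-CdR no member passed the line in J2, where 8.61% of 14007 genes were higher and 6.0% lower. The 5 members with more than 100 counts in each library all had the sign opposite to total RNA, with each counting interval away from 0. The same held for 30.7% of the 8557 genes with more than 100 counts in each of these libraries. Uhrf1 was at 0.51 (0.38 to 0.66), Dnmt1 at 0.36 (0.28 to 0.45), Dnmt3a at −0.26 (−0.44 to −0.09), Tet2 at −0.54 (−0.66 to −0.42) and Tet3 at −0.35 (−0.47 to −0.23). The J2 and total RNA libraries are single, so the difference between them was not tested. The S phase genes differed in the same way, with a median of 0.55 in J2 (7 of 28 at least 2-fold higher, none lower) against −1.68 in total RNA. With ADAR1i-124, 24 of the 28 were at least 2-fold higher in J2, with a median of 1.81, beside 7.37% of all genes tested.

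The combination in J2 was close to DMSO. No member passed the line, where 8.21% of 14158 genes were higher and 3.88% lower, and the median of all genes was 0.11. Dnmt3a had the largest change with an interval away from 0, at 0.35 (0.19 to 0.52), from 572 to 706 counts. Uhrf1 was at 0.22, Dnmt1 at 0.19, Tet3 at 0.15 and Tet2 at −0.05. Set against ADAR1i-124 alone, the combination was lower for Uhrf1 by −1.81 (−1.94 to −1.71) and for Dnmt1 by −1.02 (−1.09 to −0.94), and higher for Tet2 by 1.04 (0.92 to 1.18).

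In Z22 precipitates Uhrf1 had its largest fold range. It had 33.1 CPM with DMSO, 239 CPM with ADAR1i-124, 137 CPM with 5-AZA-CdR and 50.4 CPM with the combination. Dnmt1 had 447, 493, 394 and 202 CPM, and Tet2 had 62.4, 60.1, 112 and 93.6 CPM. As scaled here, Uhrf1 was lowest with DMSO, but relative to the median of all genes it was lower with the combination (−0.22 against DMSO). All 3 comparisons share the Z22 library of DMSO-treated cells, in which Gm42418 was raised, and the median of all genes is given beside each.

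With ADAR1i-124, Uhrf1 was 2.83 higher in Z22 (2.68 to 3.03), or 2.02 above the median of all genes of 0.81. It was the only member past the line, where 42.9% of 12799 genes were higher and 5.13% lower. Dnmt1 at 0.14 and Dnmt3a at 0.23 were above 0 as they stand and below the median of all genes. With 5-AZA-CdR, Uhrf1 was at 2.03 (1.86 to 2.24) and again the only member past the line, where 52.1% of 13716 genes were higher and 4.1% lower. This is 0.97 above the median of 1.06, so that relative to the median Uhrf1 was not past the line, whereas Dnmt1 (−1.24) and Tet3 (−1.31) were at least 2-fold lower. Tet2 was at 0.84 as it stands and −0.22 relative to that median. With the combination, Dnmt1 was at −1.14 (−1.22 to −1.06) and the only member past the line, where 43.4% of 13276 genes were higher and 5.03% lower. Only 3.96% of the genes tested had a lower value. Uhrf1 was at 0.60 there, and the median was 0.82.

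In 11 of the 12 libraries Uhrf1 stayed close to a fixed share of the S phase genes. Its level was 7.0 to 10.2 CPM per 100 CPM of the 28 S phase genes there, while the level itself spanned 50.4 to 239 CPM. The exception was the Z22 library of DMSO-treated cells, at 4.4. Dnmt1 varied more against the same sum, from 11.1 in the IgG library to 59.5 in that Z22 library. Tet2 varied most, from 1.6 in the IgG library to 32.4 in total RNA with 5-AZA-CdR. The libraries share treatments and may share RNA, so these are descriptions without a test. In bulk RNA, fewer cells in S phase and less RNA per cell cannot be told apart.

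**Figure D3:**
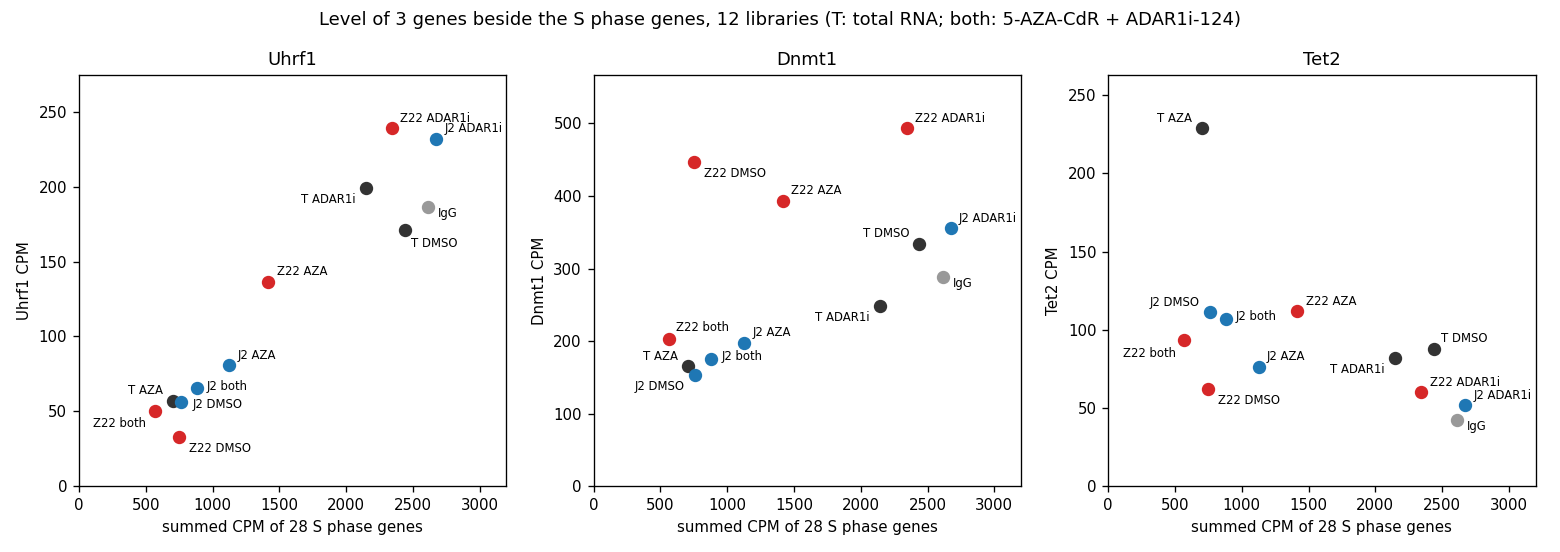
CPM of Uhrf1, Dnmt1 and Tet2 against the summed CPM of 28 S phase genes in 12 libraries (linear axes from 0; black T is total RNA, blue J2, red Z22, grey IgG). Uhrf1 is at 33.1 to 80.8 CPM where the S phase sum is at most 1126 CPM and at or above 171 CPM where it is at least 2145 CPM, Dnmt1 stands above this order in the Z22 libraries, and Tet2 is highest, at 229 CPM, where the S phase sum is 705 CPM.

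Against the IgG library, Tet3 stood out in Z22 precipitates. It had 47.9 CPM with IgG. In Z22 it had 211 CPM with DMSO, 187 CPM with ADAR1i-124, 177 CPM with 5-AZA-CdR and 190.4 CPM with both compounds. All 4 libraries were above IgG, by log2 ratios of 2.12, 1.95, 1.88 and 1.98, where the medians of all genes were −0.83, −0.05, 0.18 and 0.01. Tet3 was the only member at least 2-fold higher in all 4, where 3.52% of 13568 genes were, and no member was 2-fold lower in all 4 (0.553%). In total RNA Tet3 had 120.4, 193 and 151 CPM, so relative to total RNA of the same treatment Z22 gave 0.80 with DMSO, −0.04 with ADAR1i-124 and 0.23 with 5-AZA-CdR. The medians of all genes in these ratios were −1.18, −0.30 and −0.20. The IgG library is thus the lowest of the 12 for Tet3, and the same holds for Tet2 and Dnmt3a.

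In J2 no member was 2-fold higher (2.65% of 13829 genes) or lower (0.253%) than IgG in all 4 libraries. Tet3 came nearest, with ratios of 1.11, 0.98, 0.76 and 1.26. Dnmt3a was at 0.36 to 0.97 over IgG with J2 and at 0.97 to 1.29 with Z22. Tet2 was at 0.29 to 1.39 over the 8 precipitates. All these ratios share the single IgG library, the lowest of the 12 for both genes. The medians of all genes over IgG were −0.01 to 0.13 with J2 and −0.83 to 0.18 with Z22. Uhrf1 and Dnmt1 were above IgG with ADAR1i-124 and below it with the combination for both antibodies. Uhrf1 ran from −2.48 in the Z22 library with DMSO to 0.36 in the Z22 library with ADAR1i-124. The median of all genes over IgG was −0.83 in the former and −0.05 in the latter. Dnmt3b, with 11 to 40 counts in the precipitates and 21 with IgG, had ratios between −0.09 and 0.88 and wide intervals.

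**Figure D4:**
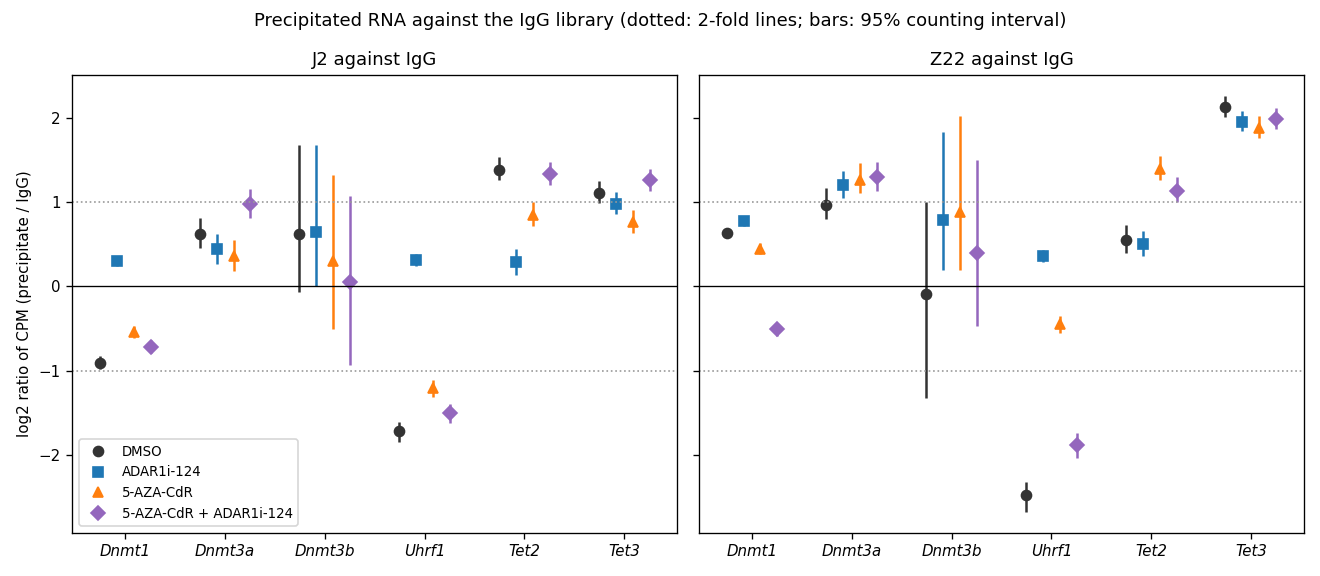
Log2 ratio of CPM over IgG in J2 (left) and Z22 (right) precipitates for 6 genes (Tet1, with too few counts, is left out), with 95% counting intervals as bars and dotted lines at 2-fold; symbols are the 4 treatments. Tet3 lies above the upper line in all 4 Z22 libraries, and Uhrf1 spreads from −2.48 to 0.36.

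Ratios within a library do not depend on its total. Uhrf1 had 51.2 counts per 100 Dnmt1 counts in total RNA with DMSO (48.9 to 53.5), 80.1 with ADAR1i-124 (76.6 to 83.8) and 34.4 with 5-AZA-CdR (32.7 to 36.2). The 3 intervals did not overlap, with Uhrf1 highest relative to Dnmt1 under ADAR1i-124 and lowest under 5-AZA-CdR. Tet2 had 26.2, 32.9 and 138.5 counts per 100 Dnmt1 counts in the same libraries, and only with 5-AZA-CdR did it have more counts than Dnmt1. In J2 the Tet2 ratio was 72.2 with DMSO, 14.6 under ADAR1i-124, 38.7 under 5-AZA-CdR and 61.0 under both. In Z22 it was 14.0, 12.2, 28.4 and 46.2. The Uhrf1 ratio was lowest in the Z22 library with DMSO, at 7.4 (6.5 to 8.3).

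**Figure D5:**
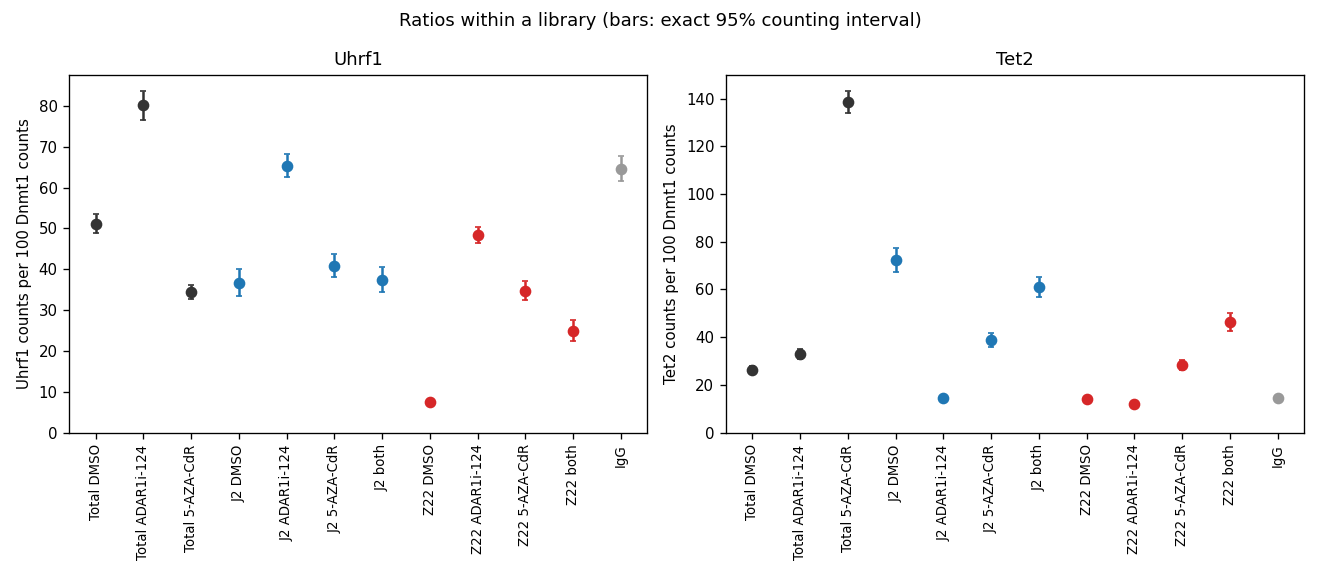
Uhrf1 counts (left) and Tet2 counts (right) per 100 Dnmt1 counts in 12 libraries, with exact 95% counting intervals as bars; colours mark total RNA (black), J2 (blue), Z22 (red) and IgG (grey). The highest Uhrf1 ratio is 80.1, in total RNA with ADAR1i-124, and the highest Tet2 ratio is 138.5, in total RNA with 5-AZA-CdR.

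The members differed in which genes of the table were most like them. Over the log2 CPM of the 12 libraries and 8889 genes averaging 10 CPM or more, Uhrf1 was most like Lsm6 (Pearson's r of 0.99) and Utp6 (0.98), and Dnmt1 was most like Nin and Incenp (0.95 and 0.94). Tet2 was most like Tctn1 and Tpra1 (0.98 and 0.96), Tet3 most like Rin1 and Prrc2b (both 0.96), and Dnmt3a most like Zfp646 and Trrap (0.92 and 0.91). The best values for the sparse genes were lower, with 0.84 and 0.83 for Dnmt3b with Zfp568 and Urb1, and 0.92 and 0.90 for Tet1 with Arhgef7 and Rps6ka1. Among the members, Dnmt3a and Tet3 were most alike (0.83), Uhrf1 and Dnmt1 had 0.47, and Dnmt1 and Tet2 had −0.59. These values mix kinds of library and treatments, the libraries may share RNA, and they are descriptions without a p-value.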

How the data were processed

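Total RNA was sequenced after removal of ribosomal RNA, and precipitated RNA by the same library protocol. The authors aligned their reads to GRCm38 by STAR, run through snakePipes 2.8.0, and deposited a table of raw gene counts that carries no normalization. The counting tool and its strand setting are not given in the sources used here. The total RNA library of the combination, whose counts follow the other strand, was left out, so 12 of 13 libraries were used. Members and gene lists were chosen with earlier results of these data known.

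Identifiers were matched without version to GENCODE M21, which named 54495 genes and left 37 unnamed. Counts were divided by the library total and scaled to 1e6 (CPM). Log2 changes carry a pseudocount of 0.5 CPM, so that changes of low genes are understated. Intervals are exact Poisson intervals of a count and Clopper-Pearson intervals of a ratio without pseudocount, at 95%. Genes averaging 1 CPM or more over a comparison were called at 2-fold, and the floor for detection was 3 counts. No test was run, since every condition has a single library. The fold calculation was checked on simulated counts.

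All 7 members are named in full. Of the 9 gene lists, up to 3 genes per list and total RNA comparison are named, those with the largest change above 1 CPM, and for each member the 2 genes most correlated with it. Among the genes that this rule names, 1 is not reported here. Dnmt3l, Gm42418, 5430434F05Rik and 3 markers without a count were chosen for naming with their values known. The summed S phase levels, the ratios to them and the shares of all genes with opposite directions were added after the data were seen. Sequences come from RefSeq windows of GRCm38.p6.

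Alternatives covered edgeR 4.0.16 TMM factors, DESeq2 1.42.0 size factors (R 4.3.3), totals without the 20 highest genes, pseudocounts, fold lines, filters, protein-coding genes only, total RNA as the reference and transcript length. Python 3.11.15, numpy 2.4.6, pandas 2.3.3, scipy 1.17.1 and matplotlib 3.10.9 were used.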

Additional observations from a re-analysis of the deposited data

Results flagged for a closer look

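Changes against DMSO went in opposite directions in different kinds of library in 18 comparisons between kinds, over 10 combinations of gene and treatment, counting those with both counting intervals away from 0. Each kind has 1 library per treatment, the libraries of a treatment may come from shared RNA, and none of these differences was tested. Opposite directions were frequent among all genes averaging 1 CPM or more in both comparisons, at 24.5% (ADAR1i-124) and 24.9% (5-AZA-CdR) for total RNA and J2, and 35.6% and 34.7% for total RNA and Z22. For J2 and Z22 they were 16.8%, 16.5% and, with the combination, 13.3%. As log2 differences, total RNA less J2 with 5-AZA-CdR was −2.09 for Uhrf1, −1.38 for Dnmt1, 1.91 for Tet2, 0.68 for Dnmt3a and 0.68 for Tet3. The summed S phase level was 705 against 2438 CPM in the total RNA pair and 1126 against 760.4 CPM in the J2 pair, and its part in these differences was not tested. With ADAR1i-124, total RNA less J2 was −1.63 for Dnmt1 and 0.81 for Tet3.

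Total RNA less Z22 was −3.61 for Uhrf1 and 0.58 for Tet3 with 5-AZA-CdR. With ADAR1i-124 it was 0.85 for Tet3, −0.57 for Dnmt1 and −0.46 for Dnmt3a. After subtraction of each comparison's median of all genes, Dnmt1 and Dnmt3a had the same direction in total RNA and Z22, and the others kept opposite directions.

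J2 less Z22 with 5-AZA-CdR was 0.54 for Dnmt1, −0.56 for Dnmt3a and −1.37 for Tet2. With ADAR1i-124 it was −0.42 for Dnmt3a, and with the combination 1.33 for Dnmt1 and 0.29 for Tet3. After the same subtraction, Dnmt3a under either compound and Tet2 had the same direction with both antibodies, whereas Dnmt1 and Tet3 did not.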

How the results depend on the processing

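Of 336 changes of members recomputed under alternatives, 257 stayed within the counting interval of the main value, 53 moved outside it in the same direction or from an interval including 0, and 26, in 8 changes, reversed. All reversals were in Z22, where the DMSO library has the raised share of Gm42418. With ADAR1i-124, Dnmt1 became −0.54, −0.72, −0.31 and −0.67 and Dnmt3a −0.44, −0.63, −0.22 and −0.58 with TMM factors, size factors, totals without the 20 highest genes and, chosen after seeing the data, centring on the median of all genes. With 5-AZA-CdR in the same order, Dnmt3a became −0.66, −0.77, −0.22 and −0.76. Tet2 became −0.12 (TMM), −0.23 (size factors) and −0.22 (centred), and Dnmt3b −0.095 (centred). With the combination, Dnmt3a became −0.39, −0.53, −0.049 and −0.49. Uhrf1 became −0.12, −0.25 and −0.22 and Tet2 −0.14, −0.28 and −0.24 with TMM, size factors and centring.

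The number of members past the line moved with ADAR1i-124 in total RNA from 0 to 1 at 1.5-fold, with 5-AZA-CdR in total RNA from 3 to 0 at 4-fold (2 with totals without the 20 highest genes, where Dnmt1 was at −0.99, and 4 at 1.5-fold and with a pseudocount of 0.1 CPM, where Tet1 was at 1.05), and with ADAR1i-124 in J2 from 3 to 1 at 4-fold. In Z22 with ADAR1i-124 it moved from 1 to 2 with size factors, a pseudocount of 0.1 CPM and a 1.5-fold line. In Z22 with 5-AZA-CdR it moved from 1 to 3 with TMM and at 1.5-fold, and to 2 with size factors, totals without the 20 highest genes, a pseudocount of 0.1 CPM and centring. With size factors and centring Uhrf1, at 0.96 and 0.97, was no longer past it, and Dnmt1 (−1.26 and −1.24) and Tet3 (−1.32 and −1.31) were past it as lower. With TMM, Uhrf1 was at 1.07, Dnmt1 at −1.15 and Tet3 at −1.21. In Z22 with the combination it moved from 1 to 2 with size factors and at 1.5-fold, and to 0 at 4-fold. Genes past 2-fold in total RNA went from 2247 to 1145 with ADAR1i-124 and from 3739 to 2042 with 5-AZA-CdR at a minimum of 10 CPM. The median log2 ratio of 6 members to IgG in J2 was 0.40, and −0.20 with total RNA as the reference. The level of Dnmt1 in total RNA with DMSO was 45.3 CPM per kb and 56.9 by its longest transcript, and the order of the members was the same by both lengths. The cause of these moves was not tested where the setting does not itself give it. Dnmt3b and Tet1 are limited by their counts. No analysis could be paired by replicate number because the groups compared share only the replicate number 1. J2 and Z22 each have a library of the 4 treatments, and a comparison of Z22 with J2 paired by treatment was not made.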

Other observations

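The 2 germline genes without a count in total RNA with DMSO that are named above were also counted in the precipitates. Tex19.1 had no count in J2 with DMSO or ADAR1i-124, 383 under 5-AZA-CdR and 222 under both. In Z22 it had 0 counts with DMSO, 3 under ADAR1i-124, 154 under 5-AZA-CdR and 137 under both. Dazl had 1 count in J2 with DMSO and 1 with ADAR1i-124, against 247 with 5-AZA-CdR and 172 with both compounds, and in Z22 it had 0, 1, 56 and 58 counts in that order.

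Of the partners of the writers above 1 CPM in J2 with ADAR1i-124, 5 of 14 were at least 2-fold higher and none lower, with a median of 0.76, beside 7.37% and 10.8% of all genes tested. With 5-AZA-CdR in J2 none of 14 passed the line, where 8.61% of all genes tested were higher and 6.0% lower. Of the 14, 10 were above DMSO and 4 below, with a median of 0.21. In total RNA with 5-AZA-CdR, 6 of 14 were at least 2-fold lower, beside 8.96% of all genes tested. The summed level of the S phase genes was 760.4 CPM in the DMSO library of J2 against 2438 CPM in that of total RNA, and its part in these counts was not tested.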
